A study of Homo sapiens with 12 samples.

Results

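The stretch of human 28S ribosomal RNA that follows nucleotide 3500 and ends with nucleotide 4100 carries 21 of the 141 methylation sites that were scored in 4 groups of Flp-In T-Rex HEK293 cells, which derive from human embryonic kidney. Its members were taken by number alone, as the 600 positions of 28S between these limits out of 8164 positions of 10 RNAs in the deposited tables. The 21 sites are those that the authors' overview lists for 28S within the limits, and the other 579 positions serve as background. The 4 groups were GPATCH4 knockout cells (KO), wild-type cells (WT), wild-type cells transfected with siRNAs against DHX15 (siDHX15) and wild-type cells transfected with non-target siRNAs (siNT), with 3 libraries each. The sample titles call the 3 libraries of a group biological replicates. All cells were of the same parental line, and the labels do not say how many clones the knockout line stands for or how far DHX15 was depleted.

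RiboMeth-seq reads 2′-O-methylation from the ends of RNA fragments. Alkali breaks the chain next to an unmodified ribose more readily than next to a 2′-O-methylated one, so a methylated nucleotide shows fewer fragment ends than its neighbours. The score is 1 minus the read ends at a position over a weighted mean of the read ends at the 6 positions on each side, set to 0 where negative. A score near 1 means that almost no ends were found at the position. Because it is a ratio of counts, the score is not itself a share of methylated molecules.

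In rRNA these methyl groups are placed by fibrillarin in box C/D particles, in which a small nucleolar RNA pairs with the target and thereby sets the nucleotide that is modified. DHX15 belongs to the DEAH-box helicases, enzymes that remodel RNA with energy from ATP, and GPATCH4 is a G-patch protein, a class whose members bind and activate such helicases. The stretch includes helix 69, a conserved hairpin of the large subunit that reaches across to the small subunit in the joined ribosome. The comparisons asked which methylations depend on GPATCH4 and which on DHX15.

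The 28S sequence of the tables is 5069 nt long, and the sites stood at 3.5 per 100 positions in the stretch, against 1.05 in the rest of 28S. A run of 18 sites with no gap over 30 nt stretched over 244 nt, with Cm3701 at its start and Gm3944 at its end, and 6 of the gaps were 10 nt or shorter. The segments that hold the 10 sites called in knockout or knockdown are printed below from the deposited tables, 5′ to 3′, with the listed methylated nucleotides in capitals and 10 nt on each side. Positions 3691 to 3734 hold Cm3701, Am3718 and Am3724.
28S 3691 to 3734: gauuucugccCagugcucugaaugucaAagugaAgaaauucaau
Positions 3750 to 3770 hold Am3760 alone, in the loop sequence of helix 69.
28S 3750 to 3770: ggcgggaguaAcuaugacucu
Positions 3775 to 3879 hold 9 sites, which are Am3785, Gm3792, Cm3808, Um3818, Am3825, Am3830, Cm3841, Am3867 and Cm3869.
28S 3775 to 3879: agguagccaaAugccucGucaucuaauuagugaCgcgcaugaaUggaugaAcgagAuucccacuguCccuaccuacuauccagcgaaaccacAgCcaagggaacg
Positions 3877 to 3909 hold Cm3887 and Gm3899, and positions 4032 to 4064 hold Gm4042 and Cm4054.
28S 3877 to 3909: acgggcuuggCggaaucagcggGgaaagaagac
28S 4032 to 4064: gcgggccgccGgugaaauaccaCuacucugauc

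Site names give the base, m for methyl and the position in this sequence. The overview also carries older numbers, under which Am3760 is 3739, Um3818 is 3797 and Cm3869 is 3848. RefSeq (GRCh38.p14) lists 5 RNA28SN genes of 5054 to 5077 nt, on chromosomes 21 and 22 or unplaced, and reads of the repeated 28S genes cannot be assigned to 1 copy. Of the 21 methylated bases 7 were A, 6 were C, 6 were G and 2 were U. The 600 positions were 20.3% A, 29.0% C, 33.8% G and 16.8% U, and their GC content was 62.8%, against 69.4% in the whole of 28S. The nucleotide just before a site was A at 9 sites and U at 1, and the nucleotide just after it was G at 8.

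The stretch received 763804 to 1479280 read ends in KO libraries and 877013 to 1426790 in WT libraries. Fewer fell on it in the siRNA libraries, namely 68698, 114505 and 480050 in siDHX15 and 151391, 144625 and 147403 in siNT. The median neighbour mean at the 21 sites, the count against which a site is read, was 1586 to 2977 read ends in KO and WT libraries. It was 144 to 730 in the siRNA libraries, and the lowest at any site was 64.1, in siDHX15 replicate 1. Counts of replicate libraries differed by more than sampling noise, with a chi-square per degree of freedom of 7.8 to 346. The scores of the 21 sites in 2 replicates of a group had a correlation coefficient of 0.719 to 0.949.

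Many sites of the stretch scored near 1 in control cells. In siNT 10 of 21 sites had a mean score of at least 0.9, and in WT 8 did. The median of the 21 mean scores was 0.862 in KO and 0.851 in WT, and 0.811 in siDHX15 and 0.862 in siNT. At the lower end, 4 sites in KO and 2 in WT had a mean score below 0.6, as did 1 in siDHX15 and 2 in siNT. Among the sites that passed no test, Cm3701, Am3724 and Cm3808 had the highest means over the 12 libraries, with 0.975, 0.967 and 0.908. Am3867, Um3925 and Gm3744 had the lowest, with 0.563, 0.738 and 0.769. Control libraries ranged between 0.966 and 0.992 at Cm3701, but between 0.377 and 0.922 at Um3925, so the spread between replicates differed widely from site to site. The plot of scores by library shows both kinds of site.

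**Figure D1:**
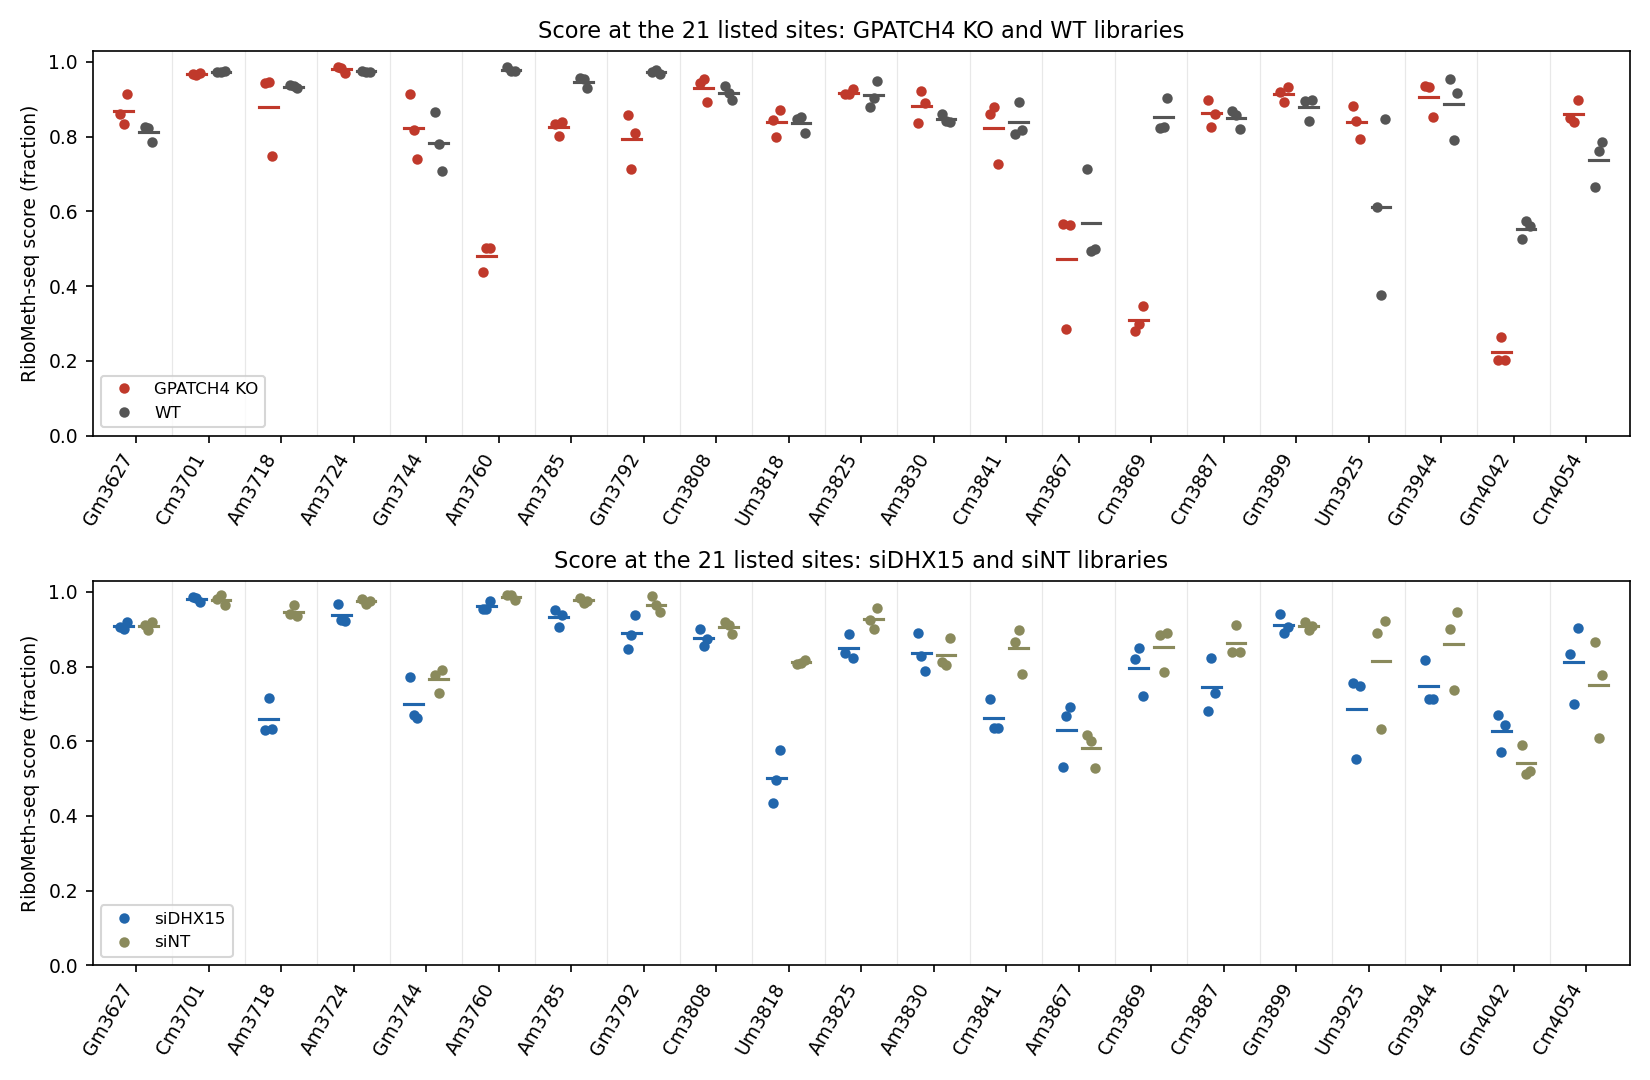
RiboMeth-seq score (fraction of 1) of each library at the 21 listed sites, with KO left of WT in the upper panel and siDHX15 left of siNT in the lower one; points are libraries and bars are means of 3. The KO points stand far below the WT points at Am3760, Cm3869 and Gm4042, and the siDHX15 points far below the siNT points at Am3718 and Um3818.

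In GPATCH4 knockout cells the score was lower than in WT at 5 of the 21 sites (23.8%) and higher at none. The 5 sites were Am3760, Cm3869, Gm4042, Gm3792 and Am3785 (limma, Benjamini-Hochberg adjusted p under 0.05 over 141 sites). The same test called 24.8% of all 141 sites lower and 0.709% higher, so the share of lower sites in the stretch was close to that among all sites. At an unadjusted p under 0.05 there were 6 of the 21 sites, against 47 of all 141. The additional one in the stretch was Gm3627, which was not called (difference 0.0567, adjusted p = 0.0900). The KO and WT scores did not overlap at 8 sites, 6 of them lower in KO, and 38.3% of all sites were separated in this way. The median difference, KO minus WT, was 0.00576 over the 21 sites and -0.00607 over all 141. When each library was centred on its median deviation over all sites, 5 sites were called lower and 2 higher, the higher ones being Gm3627 and Gm3899.

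At Am3760, the nucleotide in the helix 69 loop, scores were 0.437, 0.503 and 0.501 in KO libraries, against 0.986, 0.976 and 0.977 in WT libraries. The KO values lay together around the middle of the scale, far below the WT values, which were near 1. The difference was -0.499 (SE 0.0189, 95% interval -0.542 to -0.457, adjusted p = 1.89e-08). The counts behind it were 1437, 923 and 543 read ends at the site in KO, where the neighbours averaged 2554, 1857 and 1088. WT libraries held 27, 34 and 32 ends there, with neighbour means of 1916, 1435 and 1407. The ratio of ends at the site to ends at its neighbours was thus 4.68 higher on the log2 scale in KO. Among the 21 positions within 10 nt, counted from the fewest ends, the site ranked 5, 4 and 4 in KO libraries and 1 in every WT library.

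Cm3869 showed the largest difference of the stretch, with scores of 0.281, 0.299 and 0.348 in KO libraries and 0.824, 0.826 and 0.904 in WT libraries. The groups were far apart. The difference was -0.542 (SE 0.0412, 95% interval -0.634 to -0.450, adjusted p = 2.84e-06). Am3867, a methylated A only 2 nt upstream, scored 0.566, 0.286 and 0.563 in KO and 0.713, 0.493 and 0.5 in WT. Its values overlapped between the groups, and the difference of -0.0969 was not called (95% interval -0.287 to 0.0935, adjusted p = 0.543). Each of these sites is among the neighbours of the other. With listed sites left out of the neighbours, the means at Am3867 were 0.483 in KO and 0.603 in WT, and those at Cm3869 were 0.340 and 0.861.

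Gm4042 is a site of middling score in controls, and it was lower still in KO cells, with 0.203, 0.263 and 0.202, against 0.527, 0.575 and 0.560 in WT. All KO values fell below all WT values. The difference was -0.331 (SE 0.0314, 95% interval -0.402 to -0.261, adjusted p = 1.25e-05). Among the 21 positions within 10 nt, counted from the fewest ends, Gm4042 ranked 14, 11 and 13 in KO libraries and 5, 2 and 5 in WT libraries. Cm4054, which lies 12 nt downstream, averaged 0.862 ± 0.0304 in KO and 0.737 ± 0.0636 in WT (SD, n = 3), and was not called (adjusted p = 0.239).

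**Figure D2:**
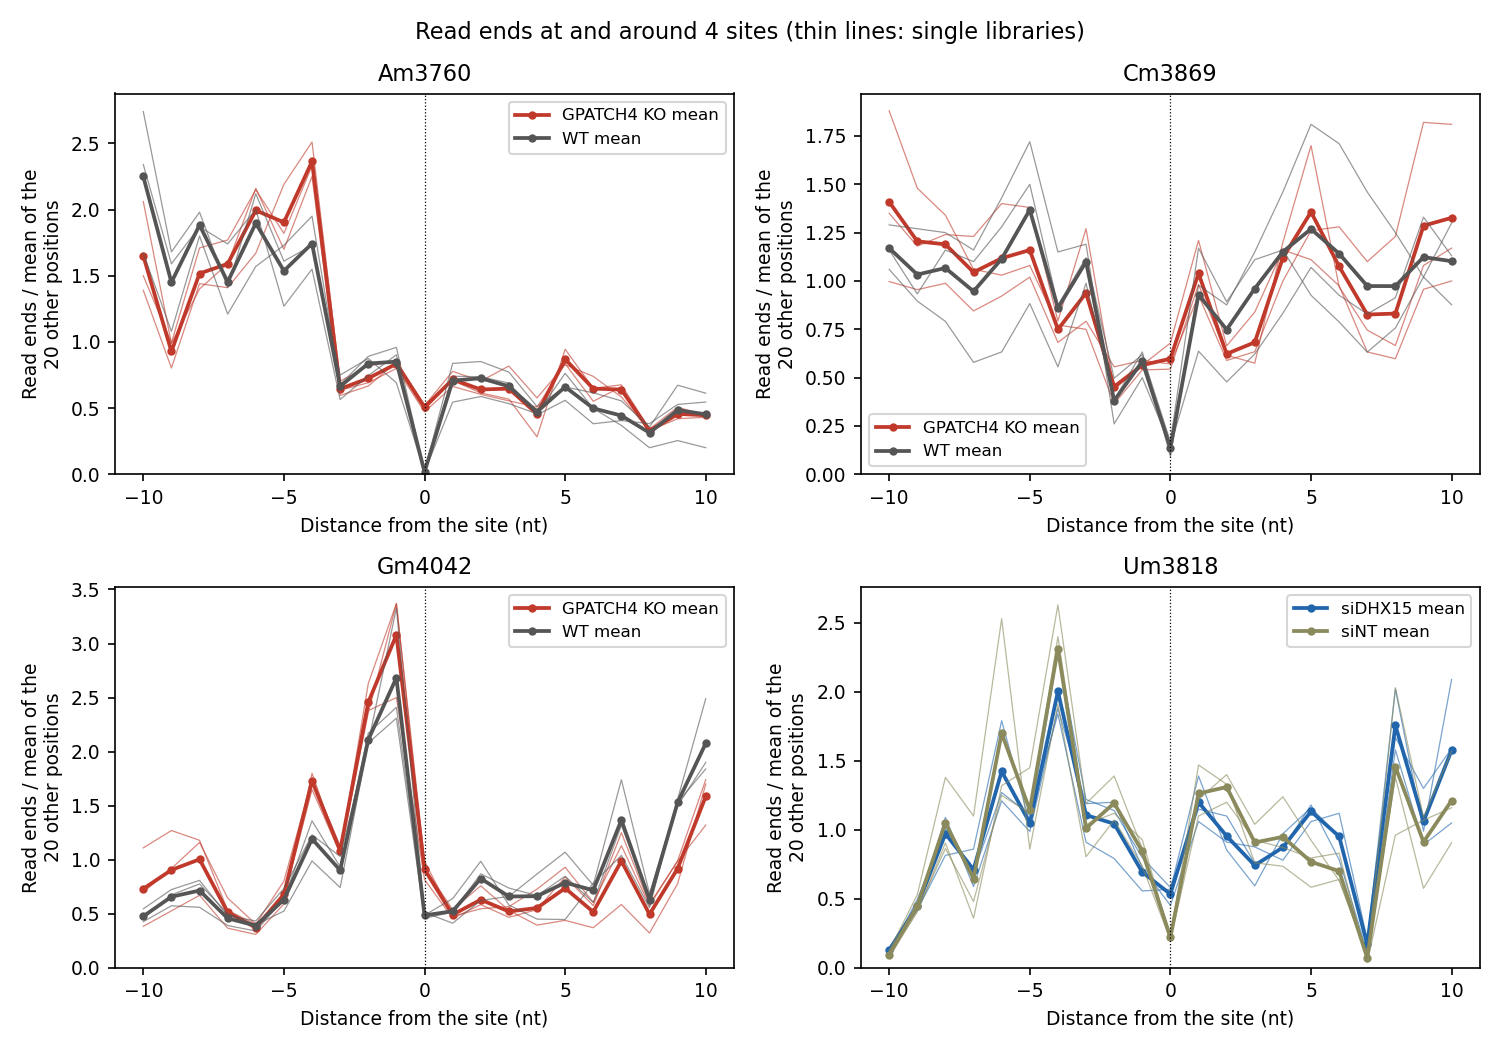
Read ends at each position divided by the mean of the 20 other positions within 10 nt, against the distance from the site in nt, for KO and WT at Am3760, Cm3869 and Gm4042 and for siDHX15 and siNT at Um3818; thin lines are libraries and thick lines means of 3. At distance 0 the KO and siDHX15 lines lie above the WT and siNT lines, and at Am3760 this ratio averaged 0.506 in KO and 0.0183 in WT.

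Am3785 and Gm3792 lie 7 nt apart, and their scores differed by less than those of the preceding sites. At Gm3792 scores were 0.857, 0.713 and 0.811 in KO and 0.974, 0.979 and 0.968 in WT, and at Am3785 they were 0.835, 0.802 and 0.838 in KO and 0.958, 0.954 and 0.929 in WT. At both sites every KO library was below every WT library. The difference was -0.180 at Gm3792 (SE 0.0349, adjusted p = 0.00279) and -0.122 at Am3785 (SE 0.0174, adjusted p = 3.16e-04). Seen as ends at the site over ends at its neighbours, KO was higher by 2.91 at Gm3792 and by 1.75 at Am3785 on the log2 scale. The order of sites turned on that scale, where Cm3869 was higher by 2.26 and Gm4042 by 0.80. When only read 3′ ends were scored, the calls ended at Am3785 (difference -0.0674, adjusted p = 0.174), Gm3792 (-0.188, 0.0506) and Gm4042 (-0.209, 0.0811), while Am3760 and Cm3869 were still called.

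The remaining 16 sites were not called in KO, and their differences ran from -0.0969 to 0.228. The widest was at Um3925, with 0.883, 0.841 and 0.794 in KO and 0.611, 0.377 and 0.847 in WT. WT replicates 1 and 2 were low there while WT replicate 3 lay inside the KO range, and the test gave an adjusted p of 0.198. Without WT replicate 3 the site was called higher in KO, and without KO replicate 2 Gm3627 was. The authors' overview gives 0.864 as the WT mean at Um3925, where the 3 scores average 0.612, because it uses deposited recalculated values for WT replicates 1 and 2. Those values, 0.871 and 0.875, equal the scores from read 5′ ends alone. The overview does the same for WT replicate 1 at Cm4054 (0.909) and for KO replicate 3 at Am3718 (0.983), again equal to the 5′ scores. At Am3718 that KO library scored 0.748, while the other two KO libraries scored 0.943 and 0.947. By base, the lower sites were 2 of 7 A, 1 of 6 C, 2 of 6 G and 0 of 2 U.

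In siDHX15 cells the score was lower than in siNT at 5 other sites, Um3818, Am3718, Cm3841, Cm3887 and Am3825. That was 23.8% of the stretch, against 31.2% of all 141 sites called lower by the same limma test and 0% called higher. In the rest of 28S, 21 of 47 sites (44.7%) were called lower. No site of the stretch was called higher. At an unadjusted p under 0.05 there were 8 of the 21 sites, against 59 of all 141. The siDHX15 and siNT scores were separated at 8 sites, each time with siDHX15 below, and 44% of all sites were separated. The median difference, siDHX15 minus siNT, was -0.0459 in the stretch and -0.0569 over all 141 sites, so most sites were somewhat lower in the siDHX15 libraries. With libraries centred, 2 sites of the stretch were called lower, Am3718 and Um3818, and 4 higher, Gm3627, Cm3701, Gm3899 and Gm4042.

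Um3818 scored 0.436, 0.496 and 0.576 in siDHX15 libraries and 0.807, 0.810 and 0.818 in siNT libraries. The siNT values were nearly alike and all 3 siDHX15 values lay well below them. The difference was -0.309 (SE 0.0330, 95% interval -0.383 to -0.235, adjusted p = 4.77e-05). The counts were 92, 167 and 282 read ends at the site in siDHX15, with neighbour means of 163, 331 and 665, and 98, 96 and 69 ends in siNT, with neighbour means of 509, 504 and 379. Um3818 has a methylated neighbour on each side, Cm3808 at 10 nt and Am3825 at 7 nt. At Cm3808 the means were 0.877 ± 0.0226 in siDHX15 and 0.907 ± 0.0165 in siNT (SD, n = 3), a difference that was not called (adjusted p = 0.349).

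Am3718 scored 0.629, 0.715 and 0.632 in siDHX15 and 0.941, 0.966 and 0.934 in siNT. The groups were separated by a wide margin. The difference was -0.288 (SE 0.0479, 95% interval -0.396 to -0.181, adjusted p = 0.00106). For replicate 3 the deposited recalculated values were 0.793 in siDHX15 and 0.953 in siNT, which the overview does not use. On recalculated values the siDHX15 mean was 0.713, against 0.659 in the overview, and the site was still called lower. With the library index as a block the difference was -0.227 and the call ended (adjusted p = 0.0588). In the file headers each index recurs in a KO or WT library and in an siRNA library, and siDHX15 and siNT share none. That fit therefore brings KO and WT scores into the siDHX15 difference, and an effect of the index itself was not tested. At Am3724, which lies 6 nt downstream, scores were 0.968, 0.925 and 0.923 in siDHX15 and 0.980, 0.967 and 0.976 in siNT, with siDHX15 replicate 1 reaching into the siNT range (difference -0.0358, adjusted p = 0.105).

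Cm3841, Cm3887 and Am3825 moved by smaller steps. Cm3841 scored 0.712, 0.636 and 0.635 in siDHX15 and 0.867, 0.898 and 0.780 in siNT, a difference of -0.187 (SE 0.0469, adjusted p = 0.0121). Cm3887 scored 0.680, 0.823 and 0.729 in siDHX15 and 0.838, 0.910 and 0.838 in siNT, a difference of -0.118 (SE 0.0371, adjusted p = 0.0345). Am3825 scored 0.836, 0.886 and 0.824 in siDHX15 and 0.925, 0.9 and 0.956 in siNT, a difference of -0.0781 (SE 0.0239, adjusted p = 0.0304). The scores of the 2 groups did not overlap at any of these 3 sites, but the gap was narrow at Cm3887 and Am3825. The call at Am3825 ended with replicates blocked within each experiment (adjusted p = 0.0808) and that at Cm3841 with libraries centred (difference -0.118, adjusted p = 0.0882) and from read 3′ ends alone (-0.207, 0.0703). The call at Cm3887 ended in 15 of 27 alternatives and the one at Am3825 in 11 of 27, including the leaving out of siDHX15 replicate 1, siDHX15 replicate 3, siNT replicate 1 or siNT replicate 3 at both sites. At Cm3887 leaving out siNT replicate 2 (adjusted p = 0.129) or WT replicate 2 (0.052) also ended it. Am3830, which lies 5 nt downstream of Am3825, averaged 0.835 ± 0.0517 in siDHX15 and 0.831 ± 0.0405 in siNT (SD, n = 3) and was not called (adjusted p = 0.964).

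The 16 sites that were not called ran from -0.130 to 0.0875. The highest difference was at Gm4042, with 0.670, 0.572 and 0.643 in siDHX15 and 0.589, 0.513 and 0.521 in siNT. There siNT replicate 1 lay above siDHX15 replicate 2, and the difference of 0.0875 was not called (adjusted p = 0.0623). With replicates blocked within each experiment it was called higher. Gm3944, with a difference of -0.113 (adjusted p = 0.193), was called lower from read 5′ ends alone and without siNT replicate 2. Cm3887 was not called in either case. By base, the lower sites were 2 of 7 A, 2 of 6 C, 0 of 6 G and 1 of 2 U. On the logit scale, which gives weight to changes near a score of 1, 8 sites were called lower, adding Am3724, Am3760, Am3785 and Gm3792 and losing Cm3887. At Am3785, for example, scores were 0.951, 0.905 and 0.938 in siDHX15 and 0.984, 0.971 and 0.976 in siNT, without overlap.

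**Figure D3:**
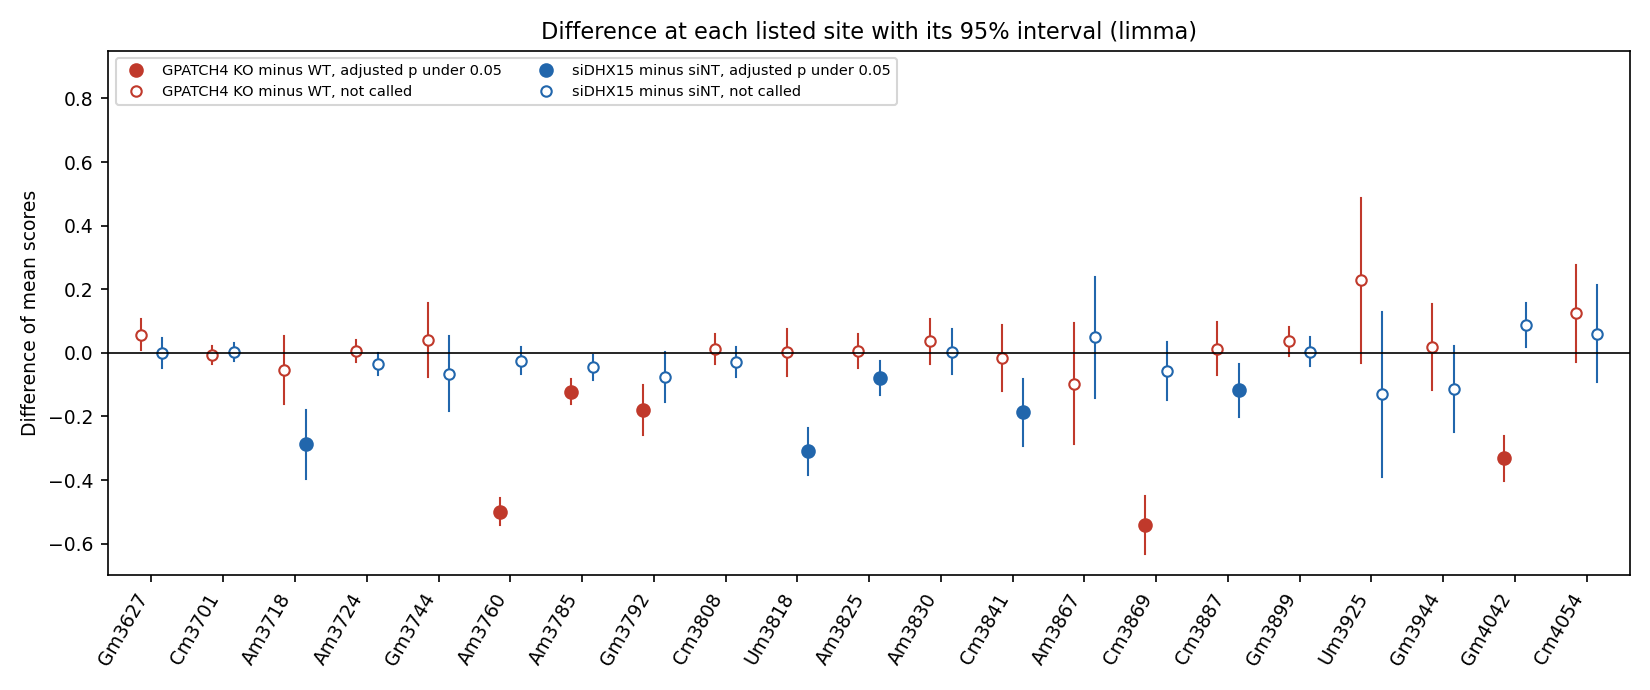
Difference of mean scores at each listed site, KO minus WT and siDHX15 minus siNT, with the 95% interval from limma; filled points are called at an adjusted p under 0.05 over 141 sites. The 5 filled KO points and the 5 filled siDHX15 points lie at different sites, and the widest intervals are at Um3925 and Am3867.

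No site of the stretch was called lower in both comparisons, and 6.38% of all 141 sites were. In 5 of 27 alternatives the stretch held such sites, namely Am3760, Am3785 and Gm3792 on the logit scale, Am3785 and Gm3792 in edgeR, Am3785 with 2 neighbours on each side or without siDHX15 replicate 1, and Gm3792 without KO replicate 2. The comparisons share no library, since KO was set against WT and siDHX15 against siNT. The difference of the effects, tested as a contrast in the same limma fit, was called at 6 of 21 sites. The KO effect was the more negative at 4 of them, where 17% of all sites were called in that direction. These were Cm3869 (difference of effects -0.485, adjusted p = 1.15e-04), Am3760 (-0.474, 7.17e-07), Gm4042 (-0.419, 5.63e-05) and Am3785 (-0.0760, 0.0358). The siDHX15 effect was the more negative at 2, where 20.6% of all sites were called in that direction. These were Um3818 (0.311, 4.47e-04) and Am3718 (0.234, 0.0215). In siDHX15, Am3760 scored 0.954, 0.954 and 0.976, all below the siNT scores of 0.991, 0.991 and 0.977. That difference of -0.0250 was not called on the score scale (adjusted p = 0.368), and the log2 ratio of ends at the site to its neighbours was 1.28 higher in siDHX15. The ratio, with a pseudocount of 1, rests on few ends at the site, 6, 8 and 17 in siDHX15 and 2, 2 and 5 in siNT. At Cm3869 siDHX15 differed from siNT by -0.0569, which was not called, and at Um3818 knockout differed from WT by 0.00217 (95% interval -0.0717 to 0.0761).

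The remaining 4 called sites were lower in 1 comparison without a called difference of effects. At Gm3792, for example, scores were 0.848, 0.885 and 0.937 in siDHX15 and 0.988, 0.964 and 0.946 in siNT, which did not overlap. The siDHX15 difference there was -0.0762 (adjusted p = 0.130), and the difference of effects was -0.103 (adjusted p = 0.138). At Cm3841, Am3825 and Cm3887 the differences of effects were 0.171, 0.0847 and 0.131 (adjusted p = 0.0708, 0.0776 and 0.0776). With replicates blocked within each experiment the difference of effects was called at Cm3887 (adjusted p = 0.0273) and no longer at Am3785 (0.0737), and with the replicate block over all groups Cm3841 (0.0307) and Um3925 (0.0444) were added to the 6. Am3785, whose difference of effects was among the 6 called, lost that call in 14 of 26 alternatives, 8 of which left out 1 library.

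The control groups differed in depth, and index sequences in the file headers recur between them, so the index alone does not identify a library. The sample titles do not say whether the groups came from separate experiments. For that reason siNT was set against WT as a measure of the spread between them. No site of the stretch and none of the 141 (0%) was called, with 1 site of the stretch and 10 of all sites at an unadjusted p under 0.05. That site was Gm3627, with 0.910, 0.897 and 0.920 in siNT and 0.826, 0.824 and 0.787 in WT. All siNT values were above all WT values (difference 0.0962, adjusted p = 0.144). The siNT and WT scores did not overlap at 2 sites of the stretch, both higher in siNT. Among all 141 sites 31 were separated in this way, 25 of them higher in siNT. A shift between experiments and an effect of transfection cannot be told apart here.

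**Figure D4:**
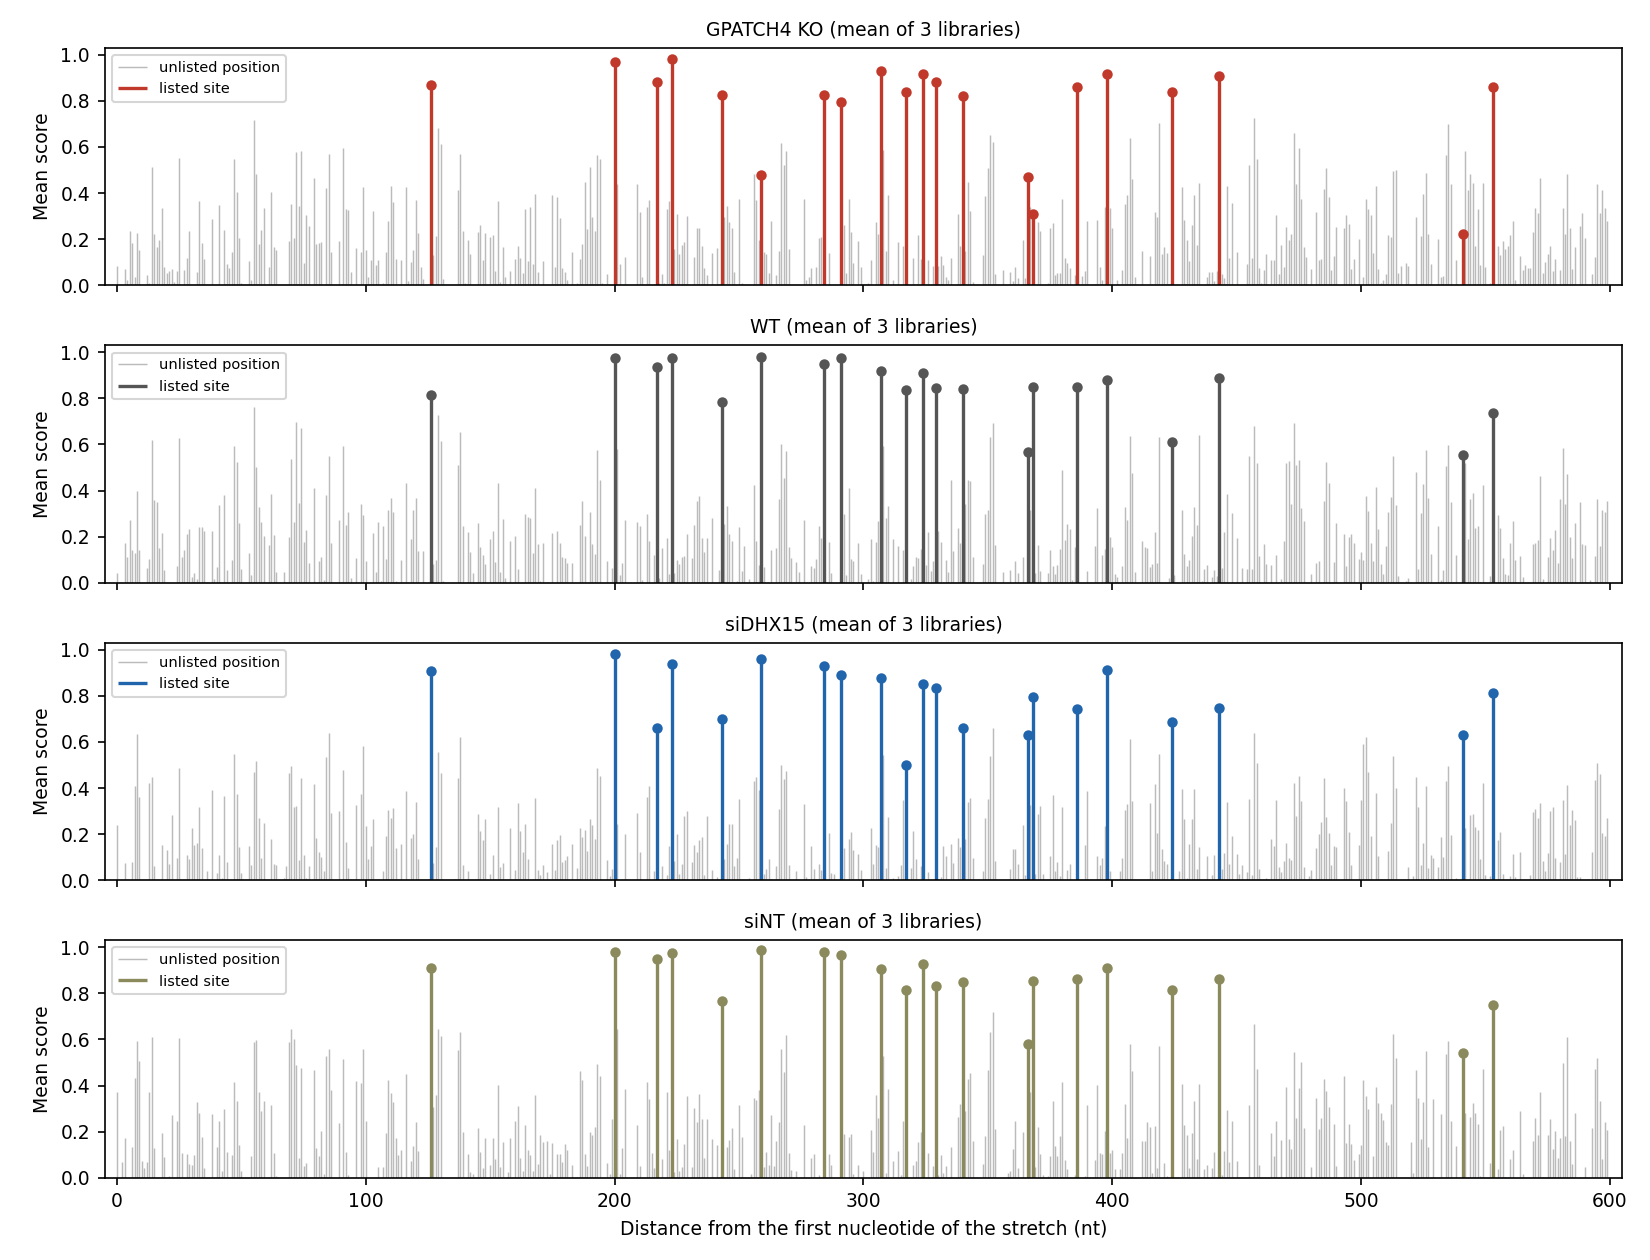
Mean score of 3 libraries at every position of the stretch in KO, WT, siDHX15 and siNT, against the distance from its first nucleotide in nt; coloured lines are the 21 listed sites and grey lines the 579 unlisted positions. The listed sites stand above most of the grey background. In KO, however, Cm3869 (0.309) and Gm4042 (0.223) lie within its range, below the 90th percentile of the unlisted means (0.424).

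Unlisted positions of the stretch had low scores. Their median score was 0.109 in KO and 0.106 in WT, and 0.0727 in siDHX15 and 0.0935 in siNT. A score of 0 in all 3 libraries was found at 23.8% of them in KO and 24.5% in WT, and at 29% in siDHX15 and 29.2% in siNT. The 90th percentile of their mean scores was 0.424 in KO and 0.412 in WT, and 0.389 in siDHX15 and 0.421 in siNT. The KO means at Cm3869 (0.309) and Gm4042 (0.223) fell below that percentile, while those at Am3760 (0.480) and the other listed sites were above it. A mean of at least 0.5 was found at 32 unlisted positions in KO, 40 in WT, 19 in siDHX15 and 35 in siNT.

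A score of at least 0.5 in all 12 libraries was found at 4 unlisted positions, U3853, G3958, U3639 and A3908. U3853, which lies 12 nt from the nearest listed site, averaged 0.623 ± 0.0579 in KO and 0.692 ± 0.0628 in WT, and 0.660 ± 0.0533 in siDHX15 and 0.717 ± 0.0493 in siNT (SD, n = 3). G3958 averaged 0.727 ± 0.0549 in KO and 0.681 ± 0.0553 in WT. Averages over the 6 control libraries were 0.705, 0.673, 0.644 and 0.608 for these 4 positions, above the mean of Am3867 (0.575), a listed site. Whether these positions carry a methyl group was not tested.

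No unlisted position was called between groups. They were tested on the log2 ratio of read ends at the position to the neighbour mean, with a pseudocount of 1 on each, where the neighbour mean was at least 50 in every library. Of 481 such positions in the stretch and 5236 in all RNAs, none (0%) was called in KO against WT, in siDHX15 against siNT, in the difference of effects or in siNT against WT (limma, adjusted over 5236). At an unadjusted p under 0.05 there were 24, 16, 8 and 44 positions of the stretch in these comparisons. These were 4.99%, 3.33%, 1.66% and 9.15% of the 481, against 5.27%, 2.29%, 0.974% and 8.65% of the 5236. The largest change at any unlisted position of the stretch was 0.879 on the log2 scale in KO against WT, and 1.10 in siDHX15 against siNT. On that scale Am3760, Gm3792 and Cm3869 were higher in KO by 4.68, 2.91 and 2.26, Am3718 and Um3818 were higher in siDHX15 by 2.69 and 1.38, and Gm4042 in KO, at 0.80, stayed within the range of the unlisted positions. Of the other called sites, Am3785 in KO (1.75) and Cm3841 in siDHX15 (1.20) were outside that range, and Am3825 (1.08) and Cm3887 (0.88) in siDHX15 were inside it. Listed sites that were not called lay outside it too, so this range does not set the called sites apart. In KO these were Um3925 (-1.09) and Cm4054 (-0.92). In siDHX15 they were Gm3792 (1.78), Am3785 (1.53), Am3760 (1.28), Am3724 (1.17) and Gm3944 (1.11).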

How the data were processed

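Fragments of 20 to 40 nt from alkali-treated total RNA were read on an Ion Proton, per the labels' protocols. Cutadapt 2.0, Bowtie2 2.3.4.1 and hg38 are listed, without their roles, per the submitters' processing notes. Per the file headers, the authors deposited whole-number counts of read 5′ and 3′ ends and a score, a fraction of 1, per position and replicate. The score formula, found from the values, gave 8044 deposited scores with a largest difference of 5e-10. At 8 snRNA sites at positions 1 and 2 the deposited recalculated score was used.

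The scores of 12 libraries in 4 groups were fitted with limma 3.58.1 (R 4.3.3) on the linear scale. Tests were two-sided, with the Benjamini-Hochberg method applied to 141 sites at 0.05, and the scripts were tested on simulated data. Alternatives were other fits (replicate or library index blocks, edgeR 4.0.16, only the groups compared), other scores, thinning to 875096 read ends, a neighbour mean of 100, and leaving out each library. Recalculated values, the block within each experiment and leaving out libraries of groups not compared were added after seeing the data. For that block KO and WT were treated as an experiment and siDHX15 and siNT as another, which the sample titles do not state. The members and lists were chosen with earlier results of these data known.

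Sites past a threshold are given in every library, with listed sites within 10 nt. Of the others, the 3 highest and 3 lowest means are named, with at most 5 unlisted positions. Gm3627 and Cm4054 were named after their values were seen. Deviations of same-numbered siDHX15 and siNT libraries from their group means had r = 0.117, 0.16 and 0.166 over sites. For same-numbered KO and WT libraries r was 0.12, 0.0459 and -0.000863. Differently numbered libraries were not compared, so these weak correlations do not settle whether libraries are paired. The labels name no molecular identifiers, so counts bound only counting error.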

Additional observations from a re-analysis of the deposited data

Results flagged for a closer look

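At 6 sites the effect of GPATCH4 knockout differed from that of DHX15 knockdown by the test of the difference itself, given as KO minus WT less siDHX15 minus siNT. The value was -0.485 at Cm3869, -0.474 at Am3760, -0.419 at Gm4042 and -0.076 at Am3785, and 0.311 at Um3818 and 0.234 at Am3718. Um3818 and Cm3869 were called in every alternative run, and Am3760 and Gm4042 in all but the scoring of read 3′ ends alone. Am3718 lost the call in 5 of 26 alternatives, among them without siDHX15 replicate 1 (0.219, adjusted p = 0.0504) and without siDHX15 replicate 3 (0.22, adjusted p = 0.051). Am3785 lost it in 14 of 26, and 8 of these left out 1 library, namely KO replicate 2, WT replicate 1 or 2, siDHX15 replicate 1 or 3, or any siNT replicate.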

How the results depend on the processing

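No difference that was called changed sign in any alternative. Of the differences that were not called, 14 of 16 in KO and 13 of 16 in siDHX15 changed sign in at least 1, for example Um3925 in KO with recalculated values (-0.0252) and Am3718 in KO from 5′ ends alone (0.0111). The count of 5 sites lower in KO was 2 from read 3′ ends alone (Am3760 and Cm3869) and 3 with a neighbour mean of at least 100, where Cm3869 and Gm4042 were not tested. It stayed at 5 in the other alternatives, the replicate block included, and whichever library was left out. The count of sites higher in KO was 2 with libraries centred and otherwise 0, but 0 to 1 when 1 library was left out, being 1 without KO replicate 2 (Gm3627) or WT replicate 3 (Um3925). The count of 5 lower sites in siDHX15 was 2 from read 3′ ends alone, with libraries centred or with the library index as a block, 3 when thinned or with only the groups compared, 8 on the logit scale and 7 in edgeR. It was 5 with the replicate block, 4 with the replicate block within each experiment, and 3 to 6 when 1 library was left out, being 3 without siDHX15 replicate 3, siNT replicate 1 or siNT replicate 3. The count of sites higher in siDHX15 was 4 with libraries centred, 1 when thinned and 1 with the replicate block within each experiment, and 0 to 1 when 1 library was left out, being Gm4042 without siDHX15 replicate 2, siNT replicate 1 or KO replicate 2. The sites where the effects differed numbered 3 from read 3′ ends alone, 9 from 5′ ends alone, 8 with the replicate block and 4 to 8 when 1 library was left out. Between siNT and WT 1 site, Gm3627, was called from 5′ ends alone and without KO replicate 3, so leaving out 1 library gave 0 to 1. The causes of these changes were not tested, except that fewer sites were tested under the filter. Unlisted positions stayed at 0 calls in every alternative run. The siDHX15 and siNT libraries are the shallowest, and thinning every library to the depth of the shallowest ended the calls at Am3825 and Cm3887.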

Other observations

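Scores from read 5′ ends and read 3′ ends alone, which come from the same libraries, were unequal at several sites of the stretch. At Gm4042 the 5′ score averaged 0.150 ± 0.0404 in KO and 0.493 ± 0.0571 in WT, and the 3′ score 0.556 ± 0.163 in KO and 0.765 ± 0.0576 in WT (SD, n = 3). At Am3760 the 5′ score averaged 0.448 ± 0.0420 in KO and 0.986 ± 0.00737 in WT, and the 3′ score 0.628 ± 0.178 in KO and 0.939 ± 0.0415 in WT. At Cm3869 the order was the other way in KO, with 0.429 ± 0.0970 from 5′ ends and 0.178 ± 0.141 from 3′ ends. At Um3818 both ends gave similar values, 0.515 ± 0.101 and 0.5 ± 0.123 in siDHX15 and 0.859 ± 0.0658 and 0.805 ± 0.0123 in siNT. The spread at Um3925 lay in the 3′ ends, with a WT mean of 0.441 ± 0.429, where the 5′ ends gave 0.849 ± 0.0418.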
